A study of Mus musculus with 4 samples.

Results

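The genes described here are a set of MAPK feedback and growth-factor-induced genes in the medial prefrontal cortex (mPFC) of mice. The set holds 10 genes, Dusp1, Dusp4, Dusp5, Dusp6, Spry2, Spry4, Ier2, Btg2, Cyr61 and Ctgf. They were chosen by name with earlier results of these data known, and all 10 were found among the 17778 genes of the table. The mRNA was sequenced from male C57BL/6 mice (C57BL/6J in the study's methods), and no genetic change is given for either group. The study's methods call the mice juvenile and give their age at the start only. Adaptation and weeks of stress or control housing came before the mPFC was taken. The control group (Control, 2 libraries) was not stressed. The other group (CUMS, 2 libraries) had gone through chronic unpredictable mild stress, which includes social isolation, restraint, tilted or damp cages, noise, strobe light and circadian disturbance, and only mice that then showed depression-like behavior in the sucrose, Y-maze and forced swimming tests were used. Both groups went through these tests before their mPFC was taken a day later. Each value is the mean RPKM (read density over the length of a gene, corrected for library size) that the authors computed over the libraries of a group, and there is no value for a single library. RNA was isolated from each mouse, but whether a library holds a single mouse is not stated. No difference below could therefore be set against the spread between mice, and no test of the stress was possible.

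Growth factors act on receptor tyrosine kinases, which switch on RAS and then the kinases RAF, MEK and ERK, the best known of the mitogen-activated protein kinase (MAPK) cascades. ERK in turn induces a first wave of short-lived transcripts, and many of them encode proteins that turn the cascade down again. Dual specificity phosphatases (Dusp) remove the activating phosphates from MAP kinases, and Sprouty proteins (Spry) hold the signal back between the receptor and ERK. Ier2, Btg2, Cyr61 and Ctgf belong to the transcripts that serum and growth factors induce, and in the brain several of the set are induced by neuronal activity as well.

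Such transcripts are known to be switched on through short sites near the start of the gene, so that the promoters are shown before the values. The cyclic AMP response element (CRE, TGACGTCA) is bound by the factor CREB, the CArG box by serum response factor (SRF), and the TEAD site (GGAATG) by the TEAD factors that work with YAP. Windows of 250 bases before the annotated start were found for 6 of the 10 genes in RefSeq (GRCm38.p6). They were searched on both strands for these letters, for the AP-1 site (TGANTCA) and for TATAAA, and the short CRE core TGACG was added after the sequences had been seen. The full CRE contains this core. The windows with the most complete matches are those of Dusp1 (chr17:26508473-26508722, minus strand), Btg2 (chr1:134079156-134079405, minus strand), Cyr61 (chr3:145649986-145650235, minus strand) and Dusp5 (chr19:53528895-53529144, plus strand), printed 5′ to 3′ with every match in capitals.
Dusp1: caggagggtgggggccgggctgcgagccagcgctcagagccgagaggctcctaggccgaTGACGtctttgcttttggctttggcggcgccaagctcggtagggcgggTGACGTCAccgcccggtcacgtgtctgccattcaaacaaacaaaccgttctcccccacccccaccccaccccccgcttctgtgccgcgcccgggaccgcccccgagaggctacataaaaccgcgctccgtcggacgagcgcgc
Btg2: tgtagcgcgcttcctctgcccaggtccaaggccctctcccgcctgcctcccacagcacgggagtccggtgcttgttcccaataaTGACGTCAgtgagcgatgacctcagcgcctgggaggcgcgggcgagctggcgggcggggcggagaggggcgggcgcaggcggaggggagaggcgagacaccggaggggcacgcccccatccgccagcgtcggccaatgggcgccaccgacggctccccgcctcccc
Cyr61: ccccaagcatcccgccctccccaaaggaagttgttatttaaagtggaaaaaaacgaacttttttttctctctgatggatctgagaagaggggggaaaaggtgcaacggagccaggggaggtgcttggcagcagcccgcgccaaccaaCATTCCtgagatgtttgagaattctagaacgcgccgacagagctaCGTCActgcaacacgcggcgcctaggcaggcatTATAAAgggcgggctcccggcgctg
Dusp5: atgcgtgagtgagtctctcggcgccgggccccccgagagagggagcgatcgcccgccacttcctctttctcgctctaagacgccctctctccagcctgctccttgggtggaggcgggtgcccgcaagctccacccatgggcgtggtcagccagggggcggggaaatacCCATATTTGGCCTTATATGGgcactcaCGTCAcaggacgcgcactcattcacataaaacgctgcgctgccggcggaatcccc

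Positions are counted from the annotated start, with -1 for the base before it. Dusp1 held a full CRE at -143 to -136 and a separate core at -191 to -187. Btg2 held a full CRE at -166 to -159. A full CRE was present in 1.55% of 32851 promoter windows of this length in RefSeq, and a core in 17.8%. Dusp5 held a pair of adjacent CArG boxes at -82 to -73 and -72 to -63, and a short CRE core at -55 to -51. A CArG box, single or not, was present in 1.47% of windows, and windows with a pair were not counted. Cyr61 held a TEAD site at -103 to -98 (12.6% of windows), a short CRE core at -58 to -54 and TATAAA at -25 to -20 (12.4% of windows). The windows of Dusp6 and Spry2 held none of these letters, and the AP-1 site, which is in 6.75% of windows, was not found in any of the 6. A match describes letters in a window and does not show that a factor was bound.

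**Figure D1:**
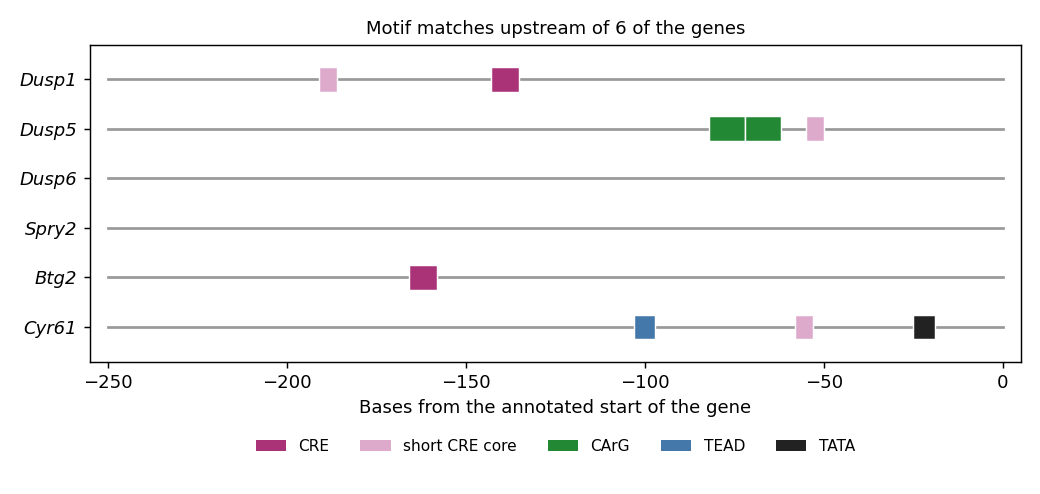
Motif matches in the 250 bases before the annotated start of 6 genes, with the distance from the start in bases on the horizontal axis and 1 line per gene. Coloured blocks are matches on either strand, with full CREs in Dusp1 and Btg2, 2 CArG boxes side by side in Dusp5, and no match in Dusp6 and Spry2.

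Most of the set was lower in CUMS-induced depression-like mice than in controls. The mean was lower in 9 of 10 genes and higher in Ctgf alone, while 53.3% of the 14257 genes that reached 0.5 RPKM in Control or CUMS had a lower mean. The median log2 ratio of CUMS over Control was -0.74 in the set, against -0.02 over those genes. A fold above 1.5 was reached by 6 genes, all lower in CUMS, namely Cyr61, Spry4, Dusp4, Ier2, Btg2 and Dusp1. In a tissue sample, fewer cells of a type cannot be told apart from less RNA per cell. Over all genes of at least 0.5 RPKM, 4.42% were lower and 2.78% were higher by this fold. All 10 genes of the set reached 0.5 RPKM, and 9 of them reached 5 RPKM, with the same 6 lower by over 1.5-fold. Among the 9397 genes of at least 5 RPKM in the table, 1.28% were lower and 0.319% were higher by that fold. The levels of the set summed to 165 RPKM in Control against 118 RPKM in CUMS. The set was chosen with earlier results of these data known, so that its shares beside those of all genes are a description and not independent evidence. Dusp1 and Cyr61 stand in the study's own list of changed genes, which was made from these libraries. That list also required a probability from the NOISeq method, and Spry4, Dusp4, Ier2 and Btg2 are not in it.

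**Figure D2:**
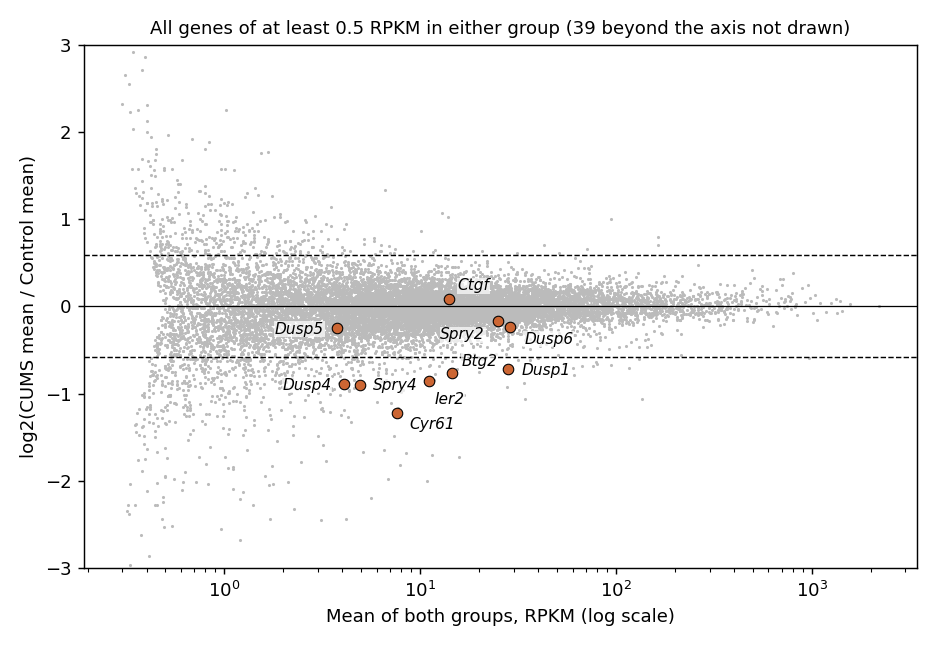
Each grey point is 1 gene that reached 0.5 RPKM in Control or CUMS, with the mean of both group means on a log scale (RPKM) on the horizontal axis and log2(CUMS mean / Control mean) on the vertical axis; the 10 genes are orange and dashed lines mark 1.5-fold. Cyr61, Spry4, Dusp4, Ier2, Btg2 and Dusp1 lie under the lower dashed line, and Ctgf lies just above 0.

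The precision of these means was read from their low values, which move in steps of whole fragments. The steps correspond to about 7385524 fragments in each Control library and 7440476 in each CUMS library, if libraries of a group were equally deep. The read numbers given for these libraries are far larger, and the gap was not resolved, so that the intervals may be wider than the true depth warrants. A gene of the set rested on 59 to 1288 fragments in a group (both libraries summed). The intervals given below are exact 95% intervals (Clopper-Pearson) of the log2 ratio from these fragments. They cover counting error only and say nothing of the difference between mice. The interval lay below 0 in 8 of the 10 genes, and in 16.8% of all genes of at least 0.5 RPKM, so that this alone is common in the table.

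**Figure D3:**
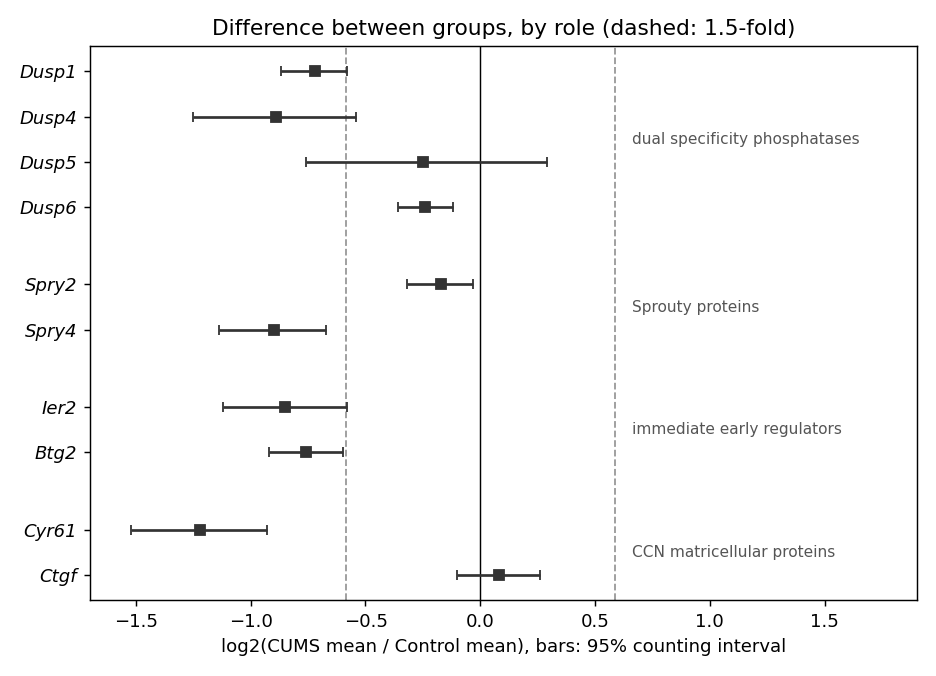
Log2(CUMS mean / Control mean) of each gene on the horizontal axis, grouped by role, with bars for the 95% counting interval and dashed lines at 1.5-fold. Within the phosphatases, the Sprouty proteins and the CCN proteins, genes past the lower dashed line stand beside genes between it and 0 or just above 0, and the intervals of Dusp5 and Ctgf cross 0.

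The phosphatases that switch MAP kinases off were lower in CUMS to unequal degrees. Dusp1 (gene 19252, chromosome 17, 26505591 to 26508472) encodes a nuclear phosphatase that acts on p38, JNK and ERK. It averaged 35.145 RPKM in Control against 21.275 RPKM in CUMS (1013 and 618 fragments). This was a log2 ratio of -0.72 (-0.87 to -0.58), 1.65-fold lower in CUMS. Dusp4 (gene 319520, chromosome 8, 34807610 to 34819894), another nuclear phosphatase, averaged 5.305 RPKM in Control against 2.865 RPKM in CUMS (190 and 103 fragments). Its log2 ratio was -0.89 (-1.25 to -0.54), 1.85-fold lower. Both of these genes were lower by more than the threshold, although their levels differ widely.

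Of the phosphatases that are specific for ERK, Dusp6 was closer to equal, while Dusp5 rested on too few fragments to be told apart from Dusp1. Dusp6 (gene 67603, chromosome 10, 99263231 to 99267489), the cytoplasmic one, averaged 30.995 RPKM in Control against 26.22 RPKM in CUMS (1288 and 1098 fragments), a log2 ratio of -0.24 (-0.36 to -0.12). Dusp5 (gene 240672, chromosome 19, 53529145 to 53541809), the nuclear one, averaged 4.065 RPKM in Control against 3.415 RPKM in CUMS. Its log2 ratio of -0.25 (-0.76 to 0.29) rested on 69 and 59 fragments, so that no difference was detectable at this depth. The RPKM of Dusp5 was computed over 1155 bases, while its longest coding transcript in GENCODE M21 has 2473 bases, so that its level is not on the same footing as the others. Its exons also overlap an antisense gene over 547 bases, and the use of strand in counting is not given in the sources used here.

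The log2 ratio of Dusp1 minus that of Dusp6 was -0.48 (95% Wald interval from fragments -0.67 to -0.30). For Dusp4 against Dusp6 the difference was -0.65 (-1.01 to -0.28). The difference of Dusp4 from Dusp5 was -0.64 (-1.25 to -0.03), and that of Dusp1 from Dusp5 was -0.47 (-0.99 to 0.05). Thus Dusp1 and Dusp4 were lower in relation to Dusp6 by more than counting error, whereas Dusp1 against Dusp5 was not resolved. Dusp1 and Dusp4 themselves differed by 0.16 (-0.21 to 0.54), and Dusp5 and Dusp6 by -0.01 (-0.52 to 0.50).

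The Sprouty proteins inhibit signaling from receptor tyrosine kinases and are themselves induced by ERK. Spry4 (gene 24066, chromosome 18, 38586247 to 38601347) averaged 6.41 RPKM in Control against 3.43 RPKM in CUMS (437 and 235 fragments), a log2 ratio of -0.90 (-1.14 to -0.67) and 1.87-fold lower. Spry2 (gene 24064, chromosome 14, 105891947 to 105896819) averaged 26.32 RPKM in Control against 23.32 RPKM in CUMS (818 and 730 fragments), a log2 ratio of -0.17 (-0.32 to -0.03). The more abundant Sprouty gene was therefore lower by 11.4% and the less abundant one by 46.5%. The difference between the log2 ratios of Spry4 and Spry2 was -0.73, with the upper limit of its interval at -0.46.

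Ier2 and Btg2 are immediate early genes that do not act on the kinases themselves. Ier2 (gene 15936, chromosome 8, 84661331 to 84662852) encodes a small nuclear protein and consists of a single exon. It averaged 14.235 RPKM in Control against 7.905 RPKM in CUMS (324 and 181 fragments), a log2 ratio of -0.85 (-1.12 to -0.58). Btg2 (gene 12227, chromosome 1, 134074865 to 134079155) restrains cell division and helps to shorten the poly(A) tails of mRNA. It averaged 18.31 RPKM in Control against 10.835 RPKM in CUMS (834 and 497 fragments), a log2 ratio of -0.76 (-0.92 to -0.60). Ier2 was 1.8-fold lower in CUMS and Btg2 was 1.69-fold lower, and their log2 ratios differed by -0.09 (-0.40 to 0.22).

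The CCN proteins are secreted into the matrix around cells and bind integrins, and both genes of the set are known targets of SRF and of YAP with TEAD. Cyr61 (now Ccn1, gene 16007, chromosome 3, 145646971 to 145649985) averaged 10.645 RPKM in Control against 4.56 RPKM in CUMS (319 and 138 fragments). Its log2 ratio of -1.22 (-1.52 to -0.93), 2.33-fold lower, was the lowest of the set. Of the 14257 genes, 144 had a lower ratio than Cyr61, which is 1.01%. Ctgf (now Ccn2, gene 14219, chromosome 10, 24595442 to 24598683), which also marks neurons of cortical layer 6b, averaged 13.59 RPKM in Control against 14.37 RPKM in CUMS (485 and 517 fragments). Its log2 ratio of 0.08 (-0.10 to 0.26) was within counting error of 0. The difference between the log2 ratios of Cyr61 and Ctgf was -1.30 (-1.64 to -0.96), the widest of the 9 pairs compared. Exons of Ctgf overlap a transcript on the opposite strand, Gm15270, over 541 bases, and reads of the pair may not have been separated. The layer 6b markers Cplx3, Nxph4 and Moxd1 had a median log2 ratio of -0.04 and ranged up to 0.08.

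**Figure D4:**
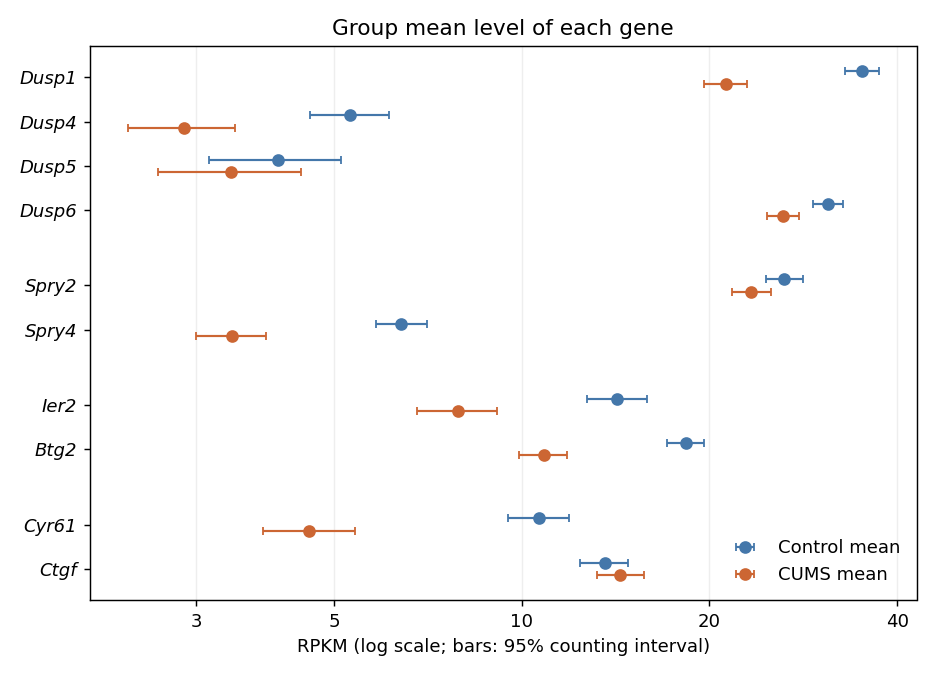
Group mean level of each gene in RPKM on a log scale, with Control in blue, CUMS in orange and bars for the 95% counting interval. The Control and CUMS intervals are apart in Dusp1, Dusp4, Dusp6, Spry4, Ier2, Btg2 and Cyr61, overlap in Dusp5 and Spry2, and the means of Ctgf lie side by side at 13.59 and 14.37 RPKM.

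The order of the levels, which are per gene length, differed between the groups. In Control, Dusp1 was highest at 35.145 RPKM, followed by Dusp6 and Spry2. In CUMS, Dusp6 was highest at 26.22 RPKM, followed by Spry2 and then Dusp1, and the levels of Spry2 and Dusp1 were not apart beyond counting error (log2 ratio of the levels 0.13, -0.02 to 0.29). Ctgf was below Btg2 and Ier2 in Control, not apart from Ier2 above it (0.07, -0.14 to 0.27). It was next after Dusp1 in CUMS, above Btg2 by 0.41 on the log2 scale (0.23 to 0.58). At the low end, Dusp4 and Dusp5 were not apart in Control (0.38, -0.01 to 0.78). In CUMS, Spry4 and Dusp5 were not apart (0.01, -0.41 to 0.42), and neither were Dusp5 and Dusp4 (0.25, -0.21 to 0.72), while the level of Dusp5 rests on the short gene length given above. The 6 genes past the threshold ranged from 5.3 to 35.1 RPKM in Control and the other 4 ranged from 4.07 to 31 RPKM, so that the ranges of level overlapped.

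Next, the rest of the pathway was described from 11 fixed lists with 129 genes in the table (Hras and Btg4 were not analysed here), of which 115 reached 0.5 RPKM. Of these, 8 were lower and 3 were higher in CUMS by over 1.5-fold (6.96% lower), with a median log2 ratio of -0.11. Over all genes of at least 0.5 RPKM, 4.42% were lower and 2.78% were higher by this fold. Of the 8 lower genes, 5 belong to the list of activity-induced immediate early genes alone. The medians of the kinase cascades were small beside that of the set. In the ERK cascade core, 0 of 20 genes were lower and 1 was higher by over 1.5-fold, with a median of -0.06. The gene that passed was Rps6ka3, a kinase that ERK activates, at 1.795 RPKM in Control against 2.97 RPKM in CUMS (log2 ratio 0.73, 0.24 to 1.21). In the JNK and p38 cascade 9 of 11 genes were higher in CUMS, while 53.3% of all genes were lower, and the median was 0.11. The interval lay above 0 in 5 of them and below 0 in 0. The share of all genes with an interval above 0 was not computed. Counts of such intervals, here and in the lists below, therefore have no background beside them. Only Mapk13 was higher by over 1.5-fold, on 4 fragments in Control and 12 in CUMS, and its interval included 0 (-0.15 to 3.66). The abundant members of that list, Mapk9 and Map2k4, had log2 ratios of 0.16 and 0.14.

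The lists of close relatives had medians between -0.21 and 0.02. Among the other MAP kinase phosphatases 1 of 5 genes was lower by over 1.5-fold, which was Dusp2 at 0.93 RPKM in Control against 0.39 RPKM in CUMS (22 and 9 fragments, log2 ratio -1.25, -2.60 to -0.12). The median of this list was -0.08. Of the other Sprouty and Spred genes, 4 of 5 were lower and 0 passed the threshold (median -0.21), and the most abundant, Spred1 and Spred2, had log2 ratios of -0.21 and -0.06. Other BTG and TOB genes, the relatives of Btg2, also had a median of -0.21 and 0 of 4 past the threshold, with Tob1 at -0.28 and Btg3 at 0.12. Of the other CCN genes only 2 reached 0.5 RPKM. Nov averaged 53.56 RPKM in Control against 76.62 RPKM in CUMS, a log2 ratio of 0.52, opposite in direction to Cyr61, and Wisp1 was at -0.47.

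Further lists around ERK, SRF and YAP had medians between -0.18 and -0.00. The SRF and YAP lists hold the factors and their partners as well as known targets. Their medians are therefore not those of targets alone. Immediate early genes such as Fos and Egr2 were placed in a separate list, given below. The medians here leave them out and do not cover all genes induced through ERK or SRF. Of the other ERK-induced genes, 14 of 16 were lower, against 53.3% of all genes, but 0 passed the threshold, with a median of -0.14. The interval lay below 0 in 5 of them, against 16.8% of all genes, and above 0 in 1. The lowest was Phlda1 at -0.52 (-0.71 to -0.32), and the most abundant, the transcription factor gene Etv5 and Ier5, were at -0.10 and -0.11. The YAP and TEAD list (median -0.18) had 8 genes lower and 5 higher, with 0 of 13 lower by over 1.5-fold and 1 higher by that fold, Ajuba (0.65, -0.00 to 1.35). The most abundant genes of this list, F3 and Axl, were at -0.14 and 0.04. The interval lay below 0 in 4 of the 13 genes, against 16.8% of all genes, and above 0 in 0. The lowest of the list was Amotl1 at -0.54 (-0.68 to -0.40). SRF and muscle-actin targets had 4 genes lower and 3 higher, a median of -0.00 and 0 of 7 past the threshold, with the SRF cofactors Mkl1 and Mkl2 at 0.01 each. Among these 7 genes the interval lay below 0 in 2, against 16.8% of all genes, and above 0 in 0. The lowest was Acta2 at -0.41 (-0.75 to -0.08). In the list of growth factors and receptors (median -0.18), 2 of 23 genes were lower by over 1.5-fold. These were Erbb3, a neuregulin receptor, at 4.33 RPKM in Control against 1.925 RPKM in CUMS (log2 ratio -1.17, -1.50 to -0.85), and Fgfr3, a receptor for fibroblast growth factors, at 48.165 RPKM in Control against 31.98 RPKM in CUMS (-0.59, -0.67 to -0.51).

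The list nearest to the set in size of difference was that of activity-induced immediate early genes. All 9 of its genes were lower in CUMS, against 53.3% of all genes, with a median of -0.64 and a range from -1.06 to -0.44. The threshold was passed by 5 of them, against 4.42% of all genes lower by that fold. The interval lay below 0 in all 9, against 16.8% of all genes. Like the set, this list was chosen with earlier results of these data known. Arc, Fos, Egr2 and Npas4, which neurons switch on when active, had log2 ratios of -1.06, -1.06, -0.84 and -0.75. Arc, Fos and Npas4 are in the study's own list of changed genes as well.

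**Figure D5:**
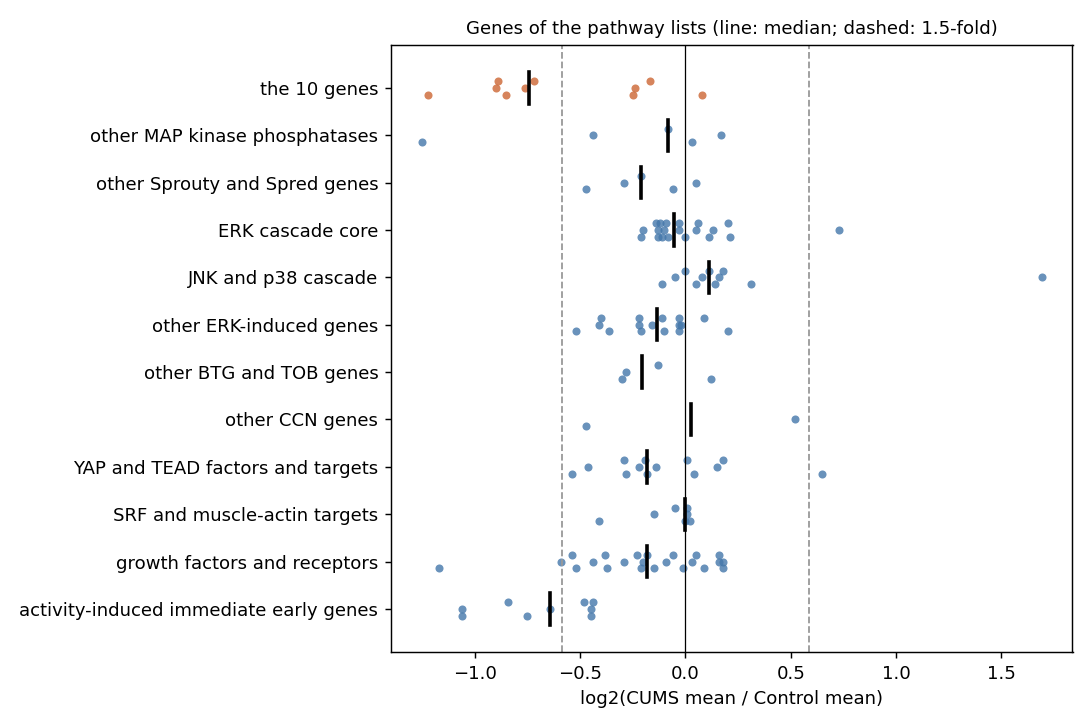
Log2(CUMS mean / Control mean) of every gene with at least 0.5 RPKM in the set of 10 (orange) and in 11 pathway lists (blue), with a black line at each median and dashed lines at 1.5-fold. The set and the activity-induced immediate early genes have medians of -0.74 and -0.64, and every other list has its median between -0.21 and 0.11.

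Markers of cell types were read in the same table, because a tissue sample is a mixture of cells. Excitatory neuron markers of the neocortex were present at high levels (Slc17a7 635 and Camk2a 828 RPKM in Control), and all 6 were higher in CUMS with a median log2 ratio of 0.32. Oligodendrocyte markers were lower in 5 of 6 genes (median -0.43, summed level 619 RPKM in Control and 448 RPKM in CUMS), with Mobp past the threshold at -0.68. Striatal markers were lower in 6 of 6 genes (median -0.27, summed level 315 and 271 RPKM). Of the endothelial markers, 5 of 8 were lower (median -0.12, summed level 117 and 98.4 RPKM), and Cldn5 alone passed the threshold at -0.61. Precursors of oligodendrocytes had a median of -0.27, mural cells -0.10, meningeal fibroblasts -0.03 (with Dcn at 0.87 and Col3a1 at -0.60 past the threshold), astrocytes 0.02 and microglia 0.14. Neutrophil markers summed to 0.595 RPKM in Control and 8.26 RPKM in CUMS, and the 4 that reached 0.5 RPKM were all higher in CUMS and rested on 0 to 2 fragments each in Control. The part of these differences in the values of the 10 genes was not tested.

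The genes of the set share a compact structure, which was looked at after their values were known. Their genomic spans ranged from 1522 to 15101 bases with a median of 4275 bases, against a median of 23490 bases over 14221 genes of at least 0.5 RPKM with a RefSeq span, of which 10.4% were as short as that or shorter. Their longest coding transcripts had 1 to 5 exons with a median of 3.5, against a median of 9 over 13562 genes. The 3′ UTR was of usual length, with a median of 1088 bases in the set and 1174 bases over all genes.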

How the data were processed

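Groups were taken from the sample titles (2 Control and 2 CUMS libraries). Per the study's methods, mRNA selected on oligo(dT) beads was sequenced from both ends, quality-filtered with SolexaQA and aligned to mm10 with TopHat 1.0.12 and Bowtie 0.11.3 (versions from the submitters' processing notes), and RPKM came from reads with a unique alignment. The annotation and the strand setting are not given in the sources used here. The deposited values were RPKM, which the authors averaged over the libraries of each group, with 0.01 in place of 0. The gene length in bases was deposited beside them. The deposited log2 ratio, its direction and the NOISeq probability are the authors' own comparison and were not used, so that the fold of 1.5 stands here without that probability.

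The log2 ratio of the deposited means was computed for all 17778 genes (Python 3.11.15, scipy 1.17.1), with a fold above 1.5 and a minimum of 0.5 RPKM in either group. Fragments were estimated from the step in the product of mean and gene length among genes under 1000 bases (406 Control and 392 CUMS values, of which 86.5% and 86.2% were whole to within 0.15 of a step), under the assumption of equal depth within a group. These steps are averages of RPKM and the fragment numbers are estimates. Limits of a mean were Poisson intervals and differences between genes had Wald intervals on fragments, and PCR duplicates could not be removed. The step estimate was tested on simulated data of known depth, which does not bear on the gap between the estimated depth and the stated read numbers. limma was planned for values per library and was not run. Named from the lists were genes past the threshold with an interval apart from 0 (at most 4 a list) or else the 2 most abundant. Mapk13, Ajuba, Amotl1, Phlda1, Acta2, Moxd1, the short CRE core, gene structure and ATTTA counts were added after values had been seen. The members and lists were chosen with earlier results of these data known. Spans and promoters are from RefSeq GRCm38.p6, and exons and UTRs are from GENCODE M21, both of the same build as mm10. Of the 10 genes, 6 were matched to a promoter window, and Dusp4, Ier2, Spry4 and Ctgf were not searched.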

Additional observations from a re-analysis of the deposited data

How the results depend on the processing

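No paired analysis was possible because each gene has a single deposited mean per group. limma, a replicate block and fits without a replicate were therefore not run. The log2 ratios of the 10 genes stayed within their counting intervals in all 30 values computed in other ways. CUMS was rescaled by the median of all genes (log2 shift -0.0151) or by the RPKM total of genes of at least 5 RPKM (0.00763), or a pseudocount of 0.5 was used. Both shifts are small beside the narrowest interval, which is 0.23 wide. The rescaled values could therefore not have left their intervals. The number of genes past the fold was 6, and it was 1, Cyr61, with a fold above 2, while a lower fold threshold, both rescalings, the pseudocount and other RPKM minimums gave 6. When genes up to 1500 bases were used, the depth came to 7547170 fragments (Control) and 7610350 (CUMS), against 7385524 and 7440476. With no minimum RPKM, the list median moved from 0.02 to -0.21 in the other CCN genes, from -0.14 to -0.21 in the other ERK-induced genes, from -0.08 to -0.02 in the other MAP kinase phosphatases, from -0.18 to -0.14 in YAP and TEAD factors and targets, from -0.18 to -0.15 in growth factors and receptors, and from -0.00 to 0.01 in SRF and muscle-actin targets, which was also 0.01 with CUMS rescaled by the median. Depth limits Dusp5 most, and the spread between mice is unknown for every value.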

Other observations

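The AU-rich letters ATTTA, which are known from many short-lived mRNAs, were counted in the 3′ UTR of the longest coding transcript of each gene. The density per kb of 3′ UTR was 7.25 in Cyr61 (5 matches, with 2.05% of genes of at least 0.5 RPKM as dense or denser) and 5.8 in Dusp1 (4 matches, 4.08% of genes). It was 2.34 in Spry2, 2.27 in Btg2, 1.97 in Spry4, 1.87 in Ctgf, 1.8 in Dusp4, 0.902 in Dusp5, 0.841 in Dusp6 and 0 in Ier2. The median of the set was 1.92 per kb, against 1.34 per kb over 12948 genes, of which 37.3% were at or above the median of the set. The number of matches had a median of 2 both in the set and over all genes. The part of these letters in the differences between the groups was not tested.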
